A study of Mus musculus with 12 samples.

Results

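The Dlk1-Dio3 imprinted cluster lies on mouse chromosome 12, and its transcripts were measured here by poly(A) RNA sequencing of mouse embryonic stem cells (mESCs). The cluster was described through 6 genes, Dlk1, Meg3, Rtl1, Rian, Mirg and Dio3, chosen because Meg3 and Dio3 differed strongly between the 2 cell lines of the study. Of these 6, 4 (Dlk1, Meg3, Rtl1 and Dio3) matched an identifier among the 39017 genes of the count table, and all 4 passed the filter on low counts. Rian and Mirg could not be matched by identifier and are given no values by name. Rows without a symbol could hold them under other identifiers.

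The lines were wild-type J1, a male mESC line, and 3B3-3l, called 3B3L in the study. 3B3-3l lacks functional endogenous Dnmt3a and Dnmt3b, the de novo DNA methyltransferases, and carries transgenes for Dnmt3b and for their cofactor Dnmt3l, both driven by the strong CAG promoter, with blasticidin selection for the Dnmt3l-Flag transgene. Each line was cultured with LIF either in serum medium or in 2i, a defined N2B27 medium with the MEK inhibitor PD0325901 at 1 µM and the GSK3 inhibitor CHIR99021 at 3 µM, and each of the 4 groups held 3 biological replicates. In serum, J1 was grown on inactivated SNLP feeder cells and 3B3-3l on gelatin, so the line and the culture surface cannot be told apart in that medium. The study set these groups side by side to ask which cells the transcriptome of 3B3-3l in 2i is closest to, J1 in 2i or serum-grown cells.

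Genes of the cluster are expressed from one parental chromosome. The protein-coding genes Dlk1, Rtl1 and Dio3 are transcribed from the paternal chromosome and the noncoding RNAs Meg3 (also called Gtl2), Rian and Mirg from the maternal one, where they also carry many small nucleolar RNAs (snoRNAs) and microRNAs (miRNAs). An intergenic region between Dlk1 and Meg3 that is methylated on the paternal chromosome controls this choice, and loss of Meg3 expression is a well known defect of pluripotent stem cell lines. The libraries do not separate the parental alleles, so all values below are sums over both chromosomes.

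In GRCm38.p6 coordinates (RefSeq, the mm10 genome), Dlk1 occupies chr12:109452485-109463336, Meg3 chr12:109540996-109571729, Rtl1 chr12:109564900-109604418 and Dio3 chr12:110279230-110281097. These are whole gene spans, from first to last annotated base. The 250 bases upstream of a start site in the RefSeq promoter table are shown for the 3 genes whose levels moved furthest between groups, because the lines differ in the enzymes that methylate CpG dinucleotides. For Dlk1 this start site lies inside the whole gene span, and its window also lies wholly inside the span, past its first bases. CpGs are in capitals, and all 3 sequences are from the plus strand of the RefSeq table for GRCm38.p6.
Dlk1, chr12:109452573-109452822: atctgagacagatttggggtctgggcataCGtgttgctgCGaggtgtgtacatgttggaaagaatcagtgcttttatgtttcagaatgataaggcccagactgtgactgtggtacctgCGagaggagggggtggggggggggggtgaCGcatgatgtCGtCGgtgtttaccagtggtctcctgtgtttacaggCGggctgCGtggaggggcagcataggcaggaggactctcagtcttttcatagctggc
Meg3, first start site, chr12:109540746-109540995: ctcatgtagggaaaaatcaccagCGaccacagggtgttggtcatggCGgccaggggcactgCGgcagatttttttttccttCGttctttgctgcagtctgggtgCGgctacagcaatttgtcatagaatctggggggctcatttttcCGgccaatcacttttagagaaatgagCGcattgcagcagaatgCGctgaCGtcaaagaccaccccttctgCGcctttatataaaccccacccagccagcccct
Dio3, chr12:110278980-110279229: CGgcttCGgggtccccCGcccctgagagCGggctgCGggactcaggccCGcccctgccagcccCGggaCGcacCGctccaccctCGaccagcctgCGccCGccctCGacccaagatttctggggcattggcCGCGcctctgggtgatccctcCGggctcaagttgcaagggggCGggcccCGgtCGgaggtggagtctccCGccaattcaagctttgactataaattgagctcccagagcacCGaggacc
These windows held 8 CpGs for Dlk1, 10 for Meg3 and 21 for Dio3. Of 32851 upstream windows of the same length in the RefSeq table, 43.0% held at least as many CpGs as Dlk1, 37.8% at least as many as Meg3 and 16.3% at least as many as Dio3. The Dio3 window was also the richest of the 3 in G and C, at 69.6% against 54.8% for Dlk1 and 52.4% for Meg3. A second annotated Meg3 start, with the upstream window chr12:109545148-109545397, had no CpG there. DNA methylation was not among the measurements analysed here, so nothing is known from these files about the state of these CpGs.

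Libraries held 37050652 to 44515395 estimated reads. Levels are given as CPM, each gene's estimated count relative to the total of its library, with totals adjusted by TMM scaling, and 3 counts corresponded to 0.0684 to 0.0813 CPM. The check of the targeted genes matched the labels of the lines. Dnmt3b levels in 3B3-3l were 891 ± 32.0 CPM with serum and 928 ± 12.7 CPM with 2i (SD, n = 3), and the same media gave 413 ± 12.2 and 44.1 ± 3.12 CPM for J1. Dnmt3l stood at 290 ± 4.57 CPM in 3B3-3l in 2i against 52.8 ± 4.26 CPM in J1. Dnmt3a, for which 3B3-3l has no transgene, was at 32.1 ± 2.5 CPM (serum) and 4.67 ± 0.585 CPM (2i), and in J1 at 166 ± 0.785 and 41.5 ± 2.78 CPM. The pluripotency factor Pou5f1 was abundant in every group, with group means from 1220 to 1330 CPM. The 9 ES cell markers in the table summed to group means of 4765 to 6323 CPM, and in 2i 4 rose and 4 fell in J1 and 5 rose and 3 fell in 3B3-3l. Between the media edgeR called 66.1% of all genes in J1 and 65.4% in 3B3-3l.

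The 4 genes followed 3 different patterns. Dlk1 was a serum transcript in both lines and nearly disappeared in 2i. Meg3 and Rtl1 were higher in 3B3-3l than in J1 in both media, most of all in serum. Dio3 was low in serum in both lines and rose in 2i, much further in 3B3-3l than in J1. Differences between the lines were what singled out Meg3 and Dio3, so they are given for all 4 genes as descriptions with standard errors and without a test. The effect of 2i within each line was tested with edgeR over 17885 genes, and it uses the same libraries as the line differences.

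**Figure D1:**
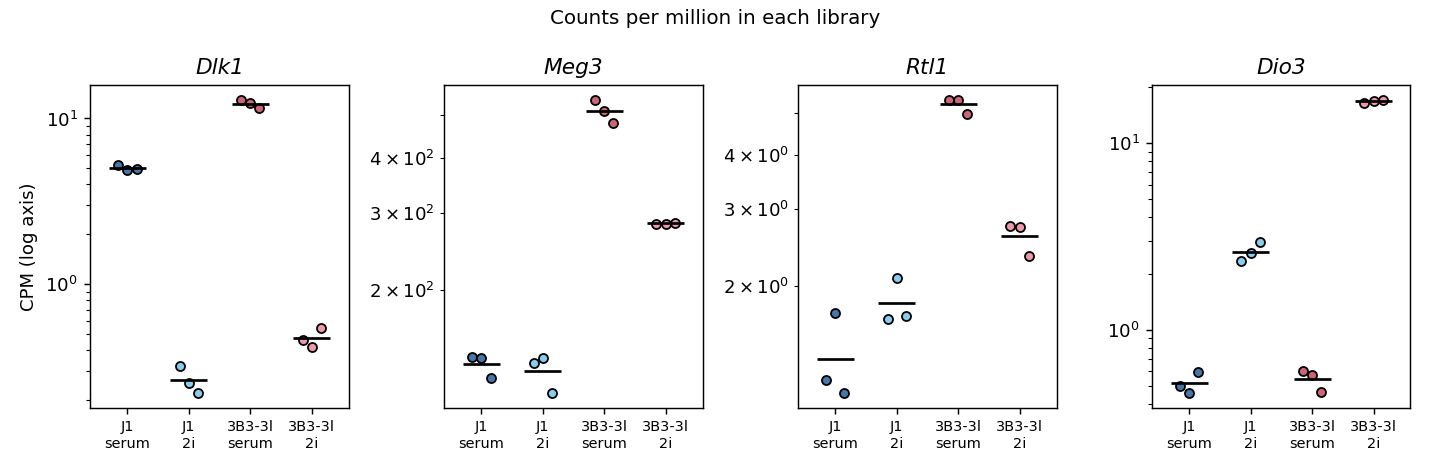
CPM of Dlk1, Meg3, Rtl1 and Dio3 in each of the 12 libraries (points) with group means (lines); each panel has its own log axis. Dlk1 lies below 1 CPM in every 2i library, Meg3 at 283 CPM or more in every 3B3-3l library and at 140 CPM or less in every J1 library, and Dio3 at 16.4 to 17.1 CPM in 3B3-3l in 2i and below 3 CPM elsewhere.

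Dlk1, a transmembrane protein related to the Notch ligands that restrains differentiation, for instance of preadipocytes, is the first gene of the cluster. In J1 in serum it was measured at 5.21, 4.92 and 4.99 CPM, and in J1 in 2i at 0.319, 0.253 and 0.220 CPM. In 3B3-3l in serum it was at 13.0, 12.3 and 11.6 CPM, and in 2i at 0.457, 0.417 and 0.542 CPM. None of the 4 groups overlapped, and the order from low to high was J1 in 2i, 3B3-3l in 2i, J1 in serum and 3B3-3l in serum.

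With 2i Dlk1 fell by 4.24 ± 0.15 on the log2 scale in J1 (edgeR adjusted p = 8.25e-13). In 3B3-3l it fell by 4.70 ± 0.13 (edgeR adjusted p = 3.17e-14). Among all 17885 genes, Dlk1 was the 180th from the bottom by log2 fold change in J1 and the 185th in 3B3-3l. What remained in 2i was 9 to 14 reads per library in J1 and 18 to 21 in 3B3-3l, all above the floor of 3 counts. The log2 difference of 3B3-3l minus J1 was 1.29 ± 0.09 in serum and 0.82 ± 0.22 in 2i. The 2i value depended on how transcript lengths were treated, and became 1.47 ± 0.32 with offsets for effective length.

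Markers of other cell types moved with Dlk1 between the media. The summed level of 17 fibroblast genes was 125 to 142 CPM in J1 in serum and 70.2 to 72.2 CPM in J1 in 2i, and 172 to 187 CPM in 3B3-3l in serum and 78.4 to 81.6 CPM in 2i. The collagen gene Col1a1 had 28.1 ± 0.209 CPM with serum and 3.28 ± 0.227 CPM with 2i in J1, and 35.5 ± 4.40 and 2.30 ± 0.0254 CPM in 3B3-3l. Of these 17 genes, 12 were tested: 1 rose and 9 fell in J1, and 1 rose and 10 fell in 3B3-3l. The 1 that rose in J1 was Pdgfrb, from 6.31 CPM in serum to 19.4 CPM in 2i (edgeR adjusted p = 5.85e-10). In 3B3-3l Pdgfrb had 7.39 CPM in serum and 7.33 CPM in 2i (edgeR adjusted p = 0.925). Over all genes 66.1% were called between the media in J1 and 65.4% in 3B3-3l. In 2i the fibroblast genes Lum, Dcn and Twist2 had no read in any library of either line. In serum 7 of the 12 were higher in 3B3-3l, the line grown on gelatin, than in J1, grown on feeders, and none was lower, where 38.7% of all genes were called. The study's methods deplete feeders by replating before cells are analysed. The source of the fibroblast gene reads was not tested, and line and culture surface cannot be told apart in serum.

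The 10 primitive endoderm genes summed to 212 to 241 CPM in J1 in serum, 40.5 to 41.9 CPM in J1 in 2i, 265 to 270 CPM in 3B3-3l in serum and 61.1 to 63.3 CPM in 3B3-3l in 2i. In J1, 2 of them rose and 6 fell in 2i, and in 3B3-3l 9 fell and none rose. The shares called over all genes were 66.1% in J1 and 65.4% in 3B3-3l. The basement membrane laminin Lamb1 made up most of the sum, with 162 CPM with serum and 24.3 CPM with 2i in J1, and fell in both lines. The 2 that rose in J1 were endodermal transcription factors, Sox17 from 0.132 to 0.311 CPM (edgeR adjusted p = 0.00824) and Gata4 from 2.23 to 4.14 CPM (edgeR adjusted p = 4.74e-05). In 3B3-3l Sox17 fell, from 0.522 to 0.236 CPM (edgeR adjusted p = 0.00365). All 10 had reads in each group. The part of such cells in the fall of Dlk1 was not tested, and in bulk RNA fewer cells of a type and less RNA per cell cannot be told apart.

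Meg3, a spliced noncoding RNA, was by far the most abundant of the 4. J1 held 140, 139 and 126 CPM in serum and 136, 140 and 116 CPM in 2i, and the 2 groups overlapped. 3B3-3l held 543, 513 and 481 CPM in serum and 283, 283 and 285 CPM in 2i, above every J1 library in both media. Per length the same order of the lines held, with 93.9 ± 10.6 RPKM in J1 in serum, 97.2 ± 4.90 in J1 in 2i, 345 ± 21.2 in 3B3-3l in serum and 202 ± 9.32 in 3B3-3l in 2i (SD, n = 3).

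The effect of 2i on Meg3 in J1 was -0.05 ± 0.07 on the log2 scale and did not pass the test (edgeR adjusted p = 0.549). In 3B3-3l Meg3 fell by 0.85 ± 0.07 in 2i (edgeR adjusted p = 1.27e-08). The log2 difference of 3B3-3l minus J1 was 1.92 ± 0.07 in serum and 1.12 ± 0.07 in 2i. Thus the line grown in 2i still had 2.10 times the Meg3 level of J1 in serum, the next group below it. By size of the line difference Meg3 was the 63rd from the top of 17885 genes in serum and the 572nd in 2i. The cluster was chosen on this difference, so these ranks are a description only.

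Rtl1, a retrotransposon-derived gene needed in the placenta, is transcribed from the strand opposite to Meg3 and its span overlaps the end of Meg3. It was measured at 1.22, 1.74 and 1.14 CPM in J1 in serum and 1.69, 2.09 and 1.71 CPM in J1 in 2i. In 3B3-3l it was at 5.35, 5.35 and 4.97 CPM in serum and 2.74, 2.73 and 2.35 CPM in 2i. The J1 groups overlapped through replicate 2 in serum, while both 3B3-3l groups lay above every J1 library.

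Rtl1 rose by 0.42 ± 0.16 on the log2 scale in J1 in 2i (edgeR adjusted p = 0.0356), a call that rested on single libraries: without replicate 2 in 2i the adjusted p was 0.144, and without replicate 1 or 3 in serum it was 0.131 or 0.143. The call was also lost with DESeq2 (adjusted p = 0.0624), without the filter on low counts (edgeR adjusted p = 0.0583) and in a fit of the 6 J1 libraries alone (edgeR adjusted p = 0.0885). In 3B3-3l Rtl1 fell by 1.00 ± 0.14 in 2i (edgeR adjusted p = 8.87e-06). The log2 difference of 3B3-3l minus J1 was 1.93 ± 0.15 in serum and 0.51 ± 0.15 in 2i.

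The CPM of Rtl1 was small beside that of Meg3. Expressed as a percent of the Meg3 CPM, it came to 1.00 ± 0.205% in J1 in serum, 1.40 ± 0.139% in J1 in 2i, 1.02 ± 0.0287% in 3B3-3l in serum and 0.920 ± 0.0823% in 3B3-3l in 2i (SD, n = 3), with a range over the 12 libraries of 0.825 to 1.49%. The ratio was higher in every library of J1 in 2i than in any 3B3-3l library. The libraries were stranded and the authors counted them with the strand setting. Whether any read of the opposite strand was counted for Rtl1 was not tested.

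Dio3, the type 3 deiodinase that inactivates thyroid hormone, is the last gene of the cluster. In serum its level was low, at 0.502, 0.458 and 0.596 CPM in J1 and 0.600, 0.573 and 0.464 CPM in 3B3-3l, which is 18 to 24 reads per library. The serum groups overlapped. In 2i it was at 2.32, 2.57 and 2.95 CPM in J1 and 16.4, 16.8 and 17.1 CPM in 3B3-3l, with no overlap between the lines or with serum.

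Dio3 rose in 2i by 2.33 ± 0.15 on the log2 scale in J1 (edgeR adjusted p = 1.18e-09) and by 4.93 ± 0.13 in 3B3-3l (edgeR adjusted p = 2.04e-14). By log2 fold change it was the 34th from the top of 17885 genes in 3B3-3l and the 278th in J1. The log2 difference of 3B3-3l minus J1 was 0.08 ± 0.20 in serum, or 0.32 ± 0.19 with offsets for effective length, and 2.68 ± 0.10 in 2i. In 3B3-3l in 2i Dio3 overtook Dlk1 and Rtl1 and was, per length, second to Meg3, at 10.2 ± 0.416 RPKM against 0.572 ± 0.235 for Dlk1 and 0.421 ± 0.0360 for Rtl1. In J1 in serum the order below Meg3 was Dlk1 at 3.78 ± 0.217, Dio3 at 0.279 ± 0.0382 and Rtl1 at 0.220 ± 0.0522 RPKM.

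**Figure D2:**
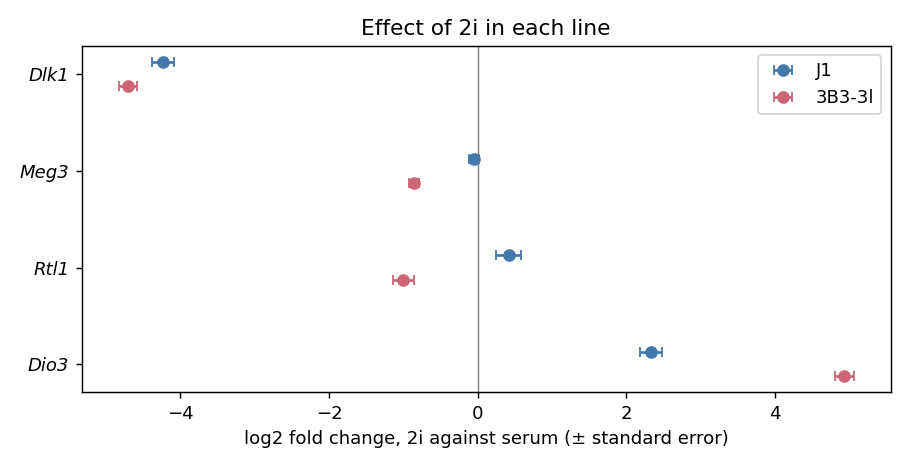
Log2 fold change of 2i against serum (points) with the standard error of the edgeR model (bars) for each gene in J1 and 3B3-3l. Dlk1 lies below -4 and Dio3 above 2 in both lines, while Meg3 is at -0.05 in J1 and -0.85 in 3B3-3l and Rtl1 at 0.42 and -1.0.

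Counted together, 3 of 4 genes were called between the media in J1, where edgeR called 66.1% of all 17885 genes, and 4 of 4 were called in 3B3-3l, where it called 65.4%. With most genes called, counts over 4 genes say little about the cluster. The median log2 fold change of the 4 was 0.18 in J1 and -0.93 in 3B3-3l, beside 0.01 over all genes in each line. The lines did not overlap for 3 of 4 genes in serum and for 4 of 4 in 2i, all with 3B3-3l higher. Over all genes 28.4% in serum and 26.6% in 2i did not overlap with 3B3-3l higher, and nothing is read from the count because the genes were chosen on this difference. The difference between the 2i effects, 3B3-3l minus J1, was -0.47 ± 0.25 for Dlk1, -0.81 ± 0.10 for Meg3, -1.42 ± 0.21 for Rtl1 and 2.60 ± 0.23 for Dio3 on the log2 scale.

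Transcripts of each gene were compared by their share of the gene's estimated reads. Meg3 had 11 transcripts, of which 6 reached 5% in some group. Among these, Gm17639-201 is assigned to another gene by the annotation that gave the transcript names. It was included because the deposited Meg3 count contains its reads. By TPM it held 10.1 to 12.3% of Meg3 as group means, and the RPKM of Meg3 leaves it out. The long Meg3-001 held 29.4 ± 1.35% in J1 in serum, 29.8 ± 1.03% in J1 in 2i, 29.1 ± 1.07% in 3B3-3l in serum and 28.6 ± 0.844% in 3B3-3l in 2i (SD, n = 3). Its share differed between groups by about the spread within them, while the mean level of the gene ranged from 131 to 512 CPM. By TPM, which divides by length, Meg3-001 held only 2.45 to 2.68% of Meg3 as group means. Meg3-003 held 27.3 ± 1.05% and 21.5 ± 0.584% in J1 in serum and 2i, and 29.0 ± 0.804% and 24.9 ± 0.833% in 3B3-3l. It was thus lower in 2i than in serum in both lines, with no overlap between the media. Differences in transcript shares were not tested.

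Dio3 had 2 transcripts, and the split between them was resolved only where the gene was high. In 3B3-3l in 2i Dio3-001 held 71.6, 71.4 and 64.7% of the reads. In J1 in 2i it held 74.1, 69.3 and 100%, and in serum, with 18 to 24 reads per library, its share ran from 32.1 to 100% in 3B3-3l and was 100% in J1. Dlk1-002 held most Dlk1 reads in serum, at 75.9 ± 12.9% in J1 and 73.3 ± 1.68% in 3B3-3l. With so few Dlk1 reads left in 2i its share ranged from 0 to 100% between the J1 libraries. Rtl1 had a single transcript.

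**Figure D3:**
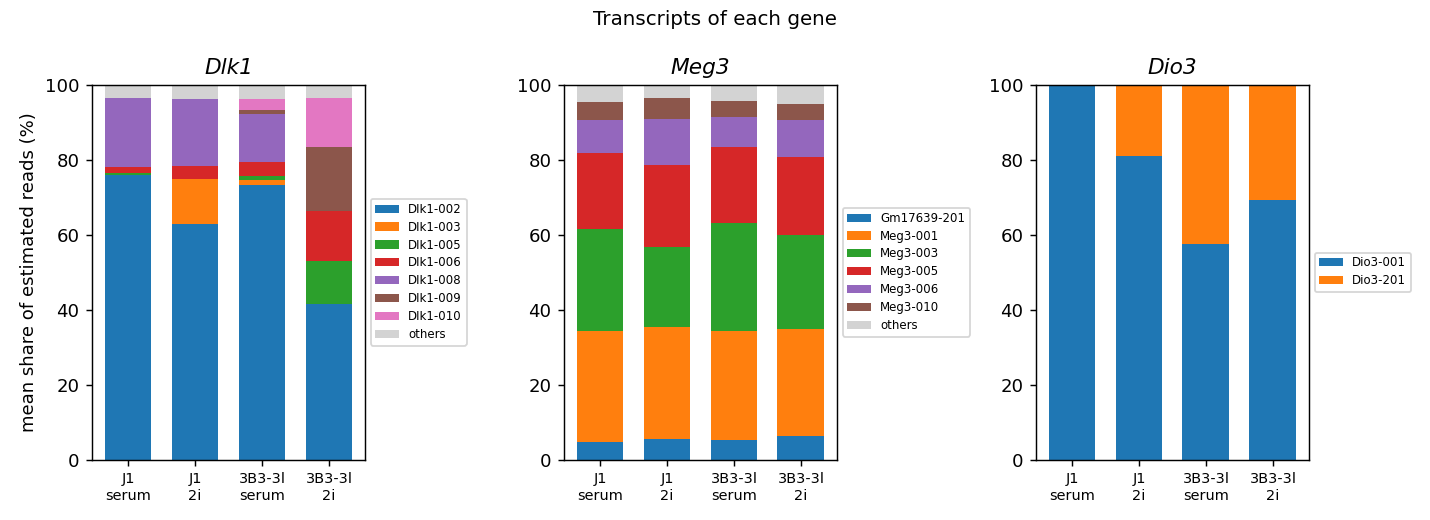
Mean share (%) of each gene's estimated reads held by its transcripts in the 4 groups, for Dlk1, Meg3 and Dio3; transcripts that never reach a group mean of 5% are pooled as others. Meg3-001 stays between 28.6 and 29.8% while Meg3-003 is lower in 2i in both lines, and the Dlk1 bars in 2i and the Dio3 bars in serum rest on 9 to 24 reads per library.

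The neighbourhood of the cluster was taken as all genes from Evl to Hsp90aa1, which gave 94 genes beside the 4. Inside the cluster lay 53 miRNA and 22 snoRNA genes. A miRNA hairpin in this region never exceeded 0.129 CPM in a library, and 27 of the 53 had no read at all. Mature miRNAs are not captured by poly(A) selection, so these values do not measure them. Only 2 snoRNA genes passed the filter on low counts, both named SNORD113. ENSMUSG00000064417 had mean levels of 0.0750 CPM in J1 in serum, 0.0924 in J1 in 2i, 0.437 in 3B3-3l in serum and 0.366 in 3B3-3l in 2i. ENSMUSG00000064452 had 0.118, 0.178, 0.746 and 0.350 CPM in the same order.

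Mean levels of both SNORD113 genes were higher in 3B3-3l than in J1 in each medium. J1 levels were near the floor of 3 counts, and these 2 genes could pass the filter only through the groups where they were high, so the values are given as a description without a fold or a test. Reads of a snoRNA and of the longer transcript that contains it are not told apart by these files.

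Outside the cluster 11 of 12 protein-coding genes could be tested, and with the 2 snoRNA genes 13 in all. Calls of the snoRNA genes, 2 between the lines in serum, 1 between the lines in 2i and 1 between the media in 3B3-3l, are part of the counts below and are favoured by the filter. Between the lines 4 of 13 were called in serum, all higher in 3B3-3l, where edgeR called 38.7% of all genes. Without the snoRNA genes the serum calls were Begain and Dync1h1 only. In 2i 6 of 13 were called, 5 higher and 1 lower, where edgeR called 45.9%. Without the snoRNA gene the 2i calls were Dync1h1, Evl, Yy1 and Slc25a47, higher, and Slc25a29, lower. Nothing is read from the counts that include snoRNA genes. Next to Dlk1, the neuronal scaffold gene Begain stood at 3.82 CPM in 3B3-3l and 2.84 CPM in J1 in serum, a log2 difference of 0.43 ± 0.16 (edgeR adjusted p = 0.0482) that was lost with DESeq2 (adjusted p = 0.0675) and without 1 library at a time for 7 of the 12 libraries. In 2i Begain stood at 1.57 and 1.64 CPM, a difference of -0.06 ± 0.19 (edgeR adjusted p = 0.816).

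On the other side, beyond Dio3, the phosphatase subunit gene Ppp2r5c stood at 126 CPM in 3B3-3l and 125 CPM in J1 in serum and at 125 and 123 CPM in 2i, with log2 differences of 0.02 ± 0.05 and 0.03 ± 0.05 (edgeR adjusted p = 0.835 and 0.663). The dynein heavy chain gene Dync1h1 was higher in 3B3-3l by 0.42 ± 0.08 in serum (edgeR adjusted p = 0.00059) and by 0.21 ± 0.08 in 2i (edgeR adjusted p = 0.0384, lost without any 1 of 7 libraries). The 1 gene lower in 3B3-3l in 2i was Slc25a29, a mitochondrial carrier for basic amino acids, with a log2 difference of -0.89 ± 0.23 (edgeR adjusted p = 0.00457). Over the protein-coding neighbours the differences between the lines ranged from -0.89 to 0.65.

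**Figure D4:**
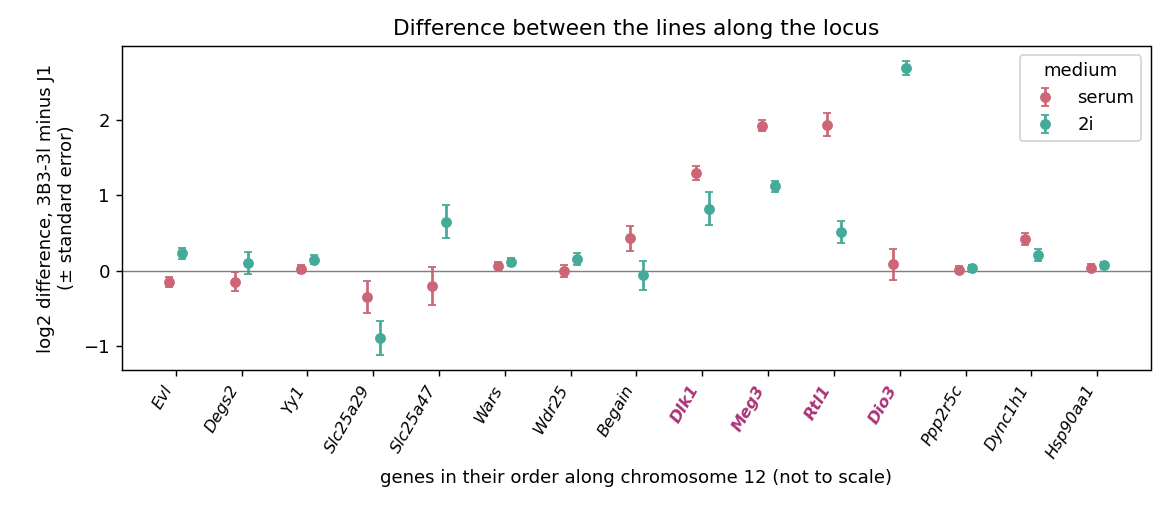
Log2 difference of 3B3-3l minus J1 (points, with standard errors as bars) in serum and 2i for the 4 cluster genes (bold) and the 11 tested protein-coding neighbours, in their order along chromosome 12. The cluster genes, chosen on this difference, lie between 0.08 and 1.93 in serum and between 0.51 and 2.68 in 2i, and the neighbours between -0.89 and 0.65 over both media, a range that takes in Dio3 in serum and Rtl1 in 2i; the 2 SNORD113 genes are not drawn.

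Between the media 6 of 13 neighbours were called in J1, 2 higher and 4 lower, and 8 of 13 in 3B3-3l, 3 higher and 5 lower, beside 66.1% and 65.4% of all genes. Begain, like Dlk1, was lower in 2i: in J1 it fell by 0.79 ± 0.18 on the log2 scale (edgeR adjusted p = 0.001). In 3B3-3l it fell by 1.28 ± 0.17 (edgeR adjusted p = 7.87e-06). Evl, an actin regulator, and the ceramide-modifying desaturase gene Degs2 also fell in both lines. Degs2 fell by 1.33 ± 0.14 in J1 (edgeR adjusted p = 3.17e-07). In 3B3-3l it fell by 1.09 ± 0.14 (edgeR adjusted p = 3.22e-06). Slc25a47, a mitochondrial carrier gene, rose by 1.10 ± 0.23 in 3B3-3l (edgeR adjusted p = 0.000511).

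The genes whose levels followed Meg3 most closely over the 12 libraries were found by the root mean square difference of centred log2 CPM, among the 13785 genes whose mean level reached 1 CPM. The nearest, at 0.136, was ENSMUSG00000097451, which no table used here pairs with a symbol or a position. It had means of 222 CPM in J1 in serum, 191 in J1 in 2i, 769 in 3B3-3l in serum and 390 in 3B3-3l in 2i. The second was Rtl1, at 0.272, and the third ENSMUSG00000097391, also without a symbol or position, at 0.283, with 10.5, 7.54, 43.2 and 27.1 CPM in the same order. Whether either lies in the cluster, or is Rian or Mirg under another identifier, could not be settled here. Zcwpw1, a histone methylation reader of meiotic cells, came next at 0.297 and the collagen gene Col11a2 at 0.301.

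The nearest to Dio3 were Bhmt2 at 0.372, Gm13128 at 0.406, Bhmt at 0.456, Cd84 at 0.463 and Ido2 at 0.486. Bhmt and Bhmt2 encode methyltransferases that remethylate homocysteine. Bhmt2 had 0.673 and 5.92 CPM in J1 in serum and 2i and 0.695 and 21.8 CPM in 3B3-3l, and Bhmt had 0.370, 3.77, 0.394 and 15.0 CPM in that order. These distances are descriptions, as the genes were picked for their likeness over the same libraries.

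**Figure D5:**
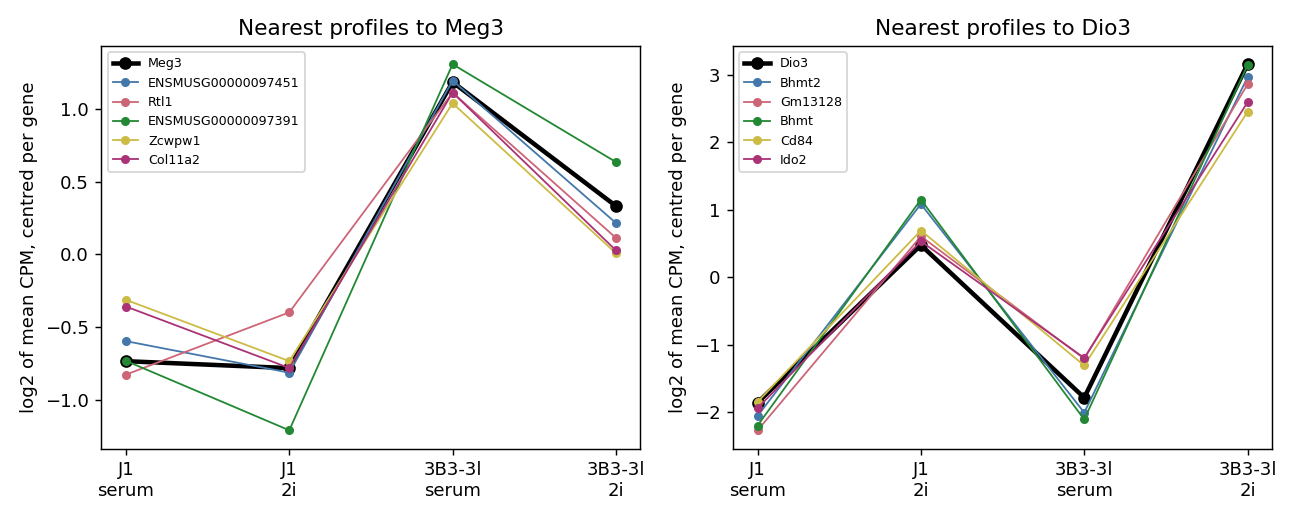
Log2 of the group mean CPM, centred per gene, for Meg3 and Dio3 (black) and the 5 genes nearest to each (colours) in the 4 groups. Genes near Meg3 peak in 3B3-3l in serum, and genes near Dio3 rise in 2i in both lines and are highest in 3B3-3l.

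Genes that act with the cluster's products were summarised as lists. All the counts of 2i effects that follow stand beside 66.1% of all genes called in J1 and 65.4% in 3B3-3l. Of 14 tested Notch receptor, ligand and target genes, 1 rose and 10 fell in 2i in J1, with a median log2 change of -1.01, and 2 rose and 12 fell in 3B3-3l, with a median of -1.64, beside 0.01 over all genes in each line. The Notch ligand Dll1 had 9.97 CPM in J1 in serum and 0.256 CPM in 2i, and 33.4 and 0.0561 CPM in 3B3-3l (edgeR adjusted p = 1.5e-12 and 1.24e-14). The target Hes1 rose, by 1.08 ± 0.06 in J1 (edgeR adjusted p = 3.65e-10) and 1.09 ± 0.06 in 3B3-3l (edgeR adjusted p = 2.79e-10). Between the lines in serum 9 of the 14 were higher in 3B3-3l and 1 lower, where 38.7% of all genes were called.

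Of 15 genes of thyroid hormone transport, metabolism and response, 12 could be tested, Dio3 not among those counted. In J1 4 rose and 7 fell in 2i, with a median of -0.35, and in 3B3-3l 4 rose and 6 fell, with a median of -0.38. The thyroid hormone receptor gene Thra rose by 1.01 ± 0.07 in J1 (edgeR adjusted p = 3.15e-09) and by 1.42 ± 0.07 in 3B3-3l (edgeR adjusted p = 3.59e-11). Hr, a corepressor of thyroid hormone receptors, fell by 1.95 ± 0.12 in J1 (edgeR adjusted p = 7.09e-10). In 3B3-3l it fell by 1.04 ± 0.11 (edgeR adjusted p = 6.87e-07).

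Of 14 factors known to act on imprinted methylation, 7 rose and 5 fell in 2i in J1, with a median of 0.17, and 8 rose and 3 fell in 3B3-3l, with a median of 0.23. Zfp57, a zinc finger protein that protects methylated imprints, rose by 0.89 ± 0.05 in J1 (edgeR adjusted p = 5.31e-10) and by 0.97 ± 0.05 in 3B3-3l (edgeR adjusted p = 1.45e-10). Dppa3 (Stella), which guards imprints after fertilisation, fell by 2.25 ± 0.08 in J1 (edgeR adjusted p = 5.99e-13). In 3B3-3l it fell by 3.22 ± 0.08 (edgeR adjusted p = 2.03e-14). Aff3, which binds the intergenic region of this cluster, fell by 2.69 ± 0.09 in J1 (edgeR adjusted p = 6.85e-13). In 3B3-3l it fell by 3.11 ± 0.09 (edgeR adjusted p = 1.09e-13). Whether any of these genes bears on the levels of Meg3, Dlk1 or Dio3 was not tested.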

How the data were processed

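The authors made stranded poly(A) libraries, estimated transcript abundances with Sailfish against mm10 models and summarised them with tximport. They deposited estimated counts per gene, not scaled by library size or length, and transcript tables with TPM and estimated counts (39017 genes and 94647 transcripts). The identifiers are those of Ensembl.

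Counts were rounded. Genes were filtered with filterByExpr of edgeR (version 4.0.16, R 4.3.3), leaving 17885, and scaled by TMM. The quasi-likelihood fit took all 12 libraries together, with a term for each group. The threshold for a call was 0.05, after Benjamini-Hochberg adjustment across the genes of a contrast. Errors of log2 values are standard errors. Floors of 3 counts cover counting error only. The test was first run on simulated counts. RPKM used the mean effective length of each gene, and for Meg3 it left out the transcript Gm17639-201. Printed gene positions and promoters came from RefSeq GRCm38.p6. A GENCODE annotation of another build gave gene types, transcript names and the gene of each transcript. Together with RefSeq it also set which genes lay in the neighbourhood and inside the cluster.

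Genes named were the 6 members, tested neighbours, the 5 nearest profiles to Meg3 and Dio3 and up to 2 called in each direction per list, of which 1 gene is not reported here. The targeted Dnmt3 genes, Pou5f1, Col1a1, Lum and Dcn were named besides these. The members and lists were chosen with earlier results of these data known. Alternatives were DESeq2 (version 1.42.0), its size factors, other count filters, length offsets, a replicate block, fits of 6 libraries and leaving out each library. Same-numbered replicates did not deviate together (correlations from -0.118 to 0.017). Sequencing pools are not labelled and were not assessed. Replicates are labelled biological.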

Additional observations from a re-analysis of the deposited data

Results flagged for a closer look

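Evl, the gene at the edge of the region that was examined, was the only 1 of 13 tested neighbours called in the edgeR test of the difference between the 2i effects. The share of all genes called for that difference is not given here, so nothing is read from this count. Other neighbours had larger differences that were not called, such as Slc25a47 at 0.85 ± 0.33 (edgeR adjusted p = 0.0593). Evl fell by 0.85 on the log2 scale in J1 and by 0.48 in 3B3-3l, and the difference was 0.38 ± 0.10 (edgeR adjusted p = 0.00999). Mean levels of Evl were 42.1 CPM in serum and 23.3 CPM in 2i in J1, and 37.9 and 27.3 CPM in 3B3-3l.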

How the results depend on the processing

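Among the alternatives run, no value of a cluster gene changed direction where it was called, and Dlk1, Dio3 and, in 3B3-3l, Meg3 and Rtl1 stayed past the threshold for 2i against serum wherever they were tested. The count of cluster genes called ranged from 2 to 3 in J1 and was 4 throughout in 3B3-3l when single libraries were left out. The number with opposite 2i effects in the lines was 1 (Rtl1) and became 2 with length offsets, where Meg3 in J1 also lay above 0, and 1 to 2 when single libraries were left out (2 without replicate 3 of J1 in 2i). The Dlk1 difference between the 2i effects went from -0.47 to 0.13 ± 0.33 with length offsets. With at least 10 counts in every library Dlk1 was not tested, which left 2 cluster genes called in J1 and 3 in 3B3-3l, and the neighbours called between the lines were 2 in serum and 3 in 2i. Leaving out single libraries, they numbered 3 to 4 in serum and 2 to 6 in 2i between the lines, and 5 to 6 in J1 and 5 to 8 in 3B3-3l between the media. The lowest counts came without replicate 2 of 3B3-3l in 2i (2 between the lines in 2i, 5 between the media) and without replicate 2 of 3B3-3l in serum (5 between the media). The causes were not tested beyond the fewer genes or libraries in these fits. With a replicate block, the cluster genes called were 3 in J1 and 4 in 3B3-3l and Meg3 in J1 stayed at -0.05 (edgeR adjusted p = 0.464); the replicates share only a number. Meg3-001 held 2.45 to 2.68% of Meg3 by TPM, which divides by its length. Depth limits Dlk1 in 2i and Dio3 in serum to 9 to 24 reads per library.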
